A study of Mus musculus with 4 samples.

Results

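The miRNAs described here are those named for miR-451a, miR-144, miR-486 and miR-122, which mark red blood cells and liver. They were found by name, all arms included, in the read counts of 4 small RNA libraries from sorted prostate cells. Of the 816 miRNA names in these libraries, 5 belonged to the set, namely miR-451a, miR-144-3p, miR-144-5p, miR-486-3p and miR-122-5p. The libraries came from wild-type C57Bl/6 male mice aged 10 weeks, with 2 libraries of basal cells and 2 of luminal cells. Both groups were gated as Sca-1 positive and lineage negative, with high CD49f (integrin alpha 6) for basal and low CD49f for luminal cells. The antibodies behind the lineage gate, and whether the libraries of a group came from separate mice or from pools, are not stated in the labels. Each group's libraries are called replicates 1 and 2, or libraries 1 and 2, as numbered in their titles. The set was chosen by name with the reads of these libraries already known, so its differences between basal and luminal libraries are given as descriptions.

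miR-144 and miR-451a are made from 1 transcript that the factor GATA1 switches on in erythroid precursors, and miR-451a is among the most abundant miRNAs of mature red cells. It dampens Ywhaz, a 14-3-3 protein, as red cells mature. Its hairpin is too short for Dicer, and the Argonaute protein Ago2 cuts it instead. miR-486 lies in the ankyrin 1 gene, which encodes a protein of the red cell membrane skeleton, and is known from red cells and from muscle. miR-122 is the dominant miRNA of hepatocytes, where it acts on lipid metabolism, and its level in blood is used as a marker of liver damage. None of these miRNAs is used as a marker of prostate epithelium.

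Mature sequences of 3 of the 5 members were found in RefSeq on GRCm38.p6, and they are shown because the 2 genes of the erythroid transcript make their products in different ways. Capitals mark the seed, bases 2 to 8, which pairs with target mRNAs.
miR-451a: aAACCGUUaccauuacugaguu
miR-144-3p: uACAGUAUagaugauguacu
miR-144-5p: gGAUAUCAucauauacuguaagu
No seed was shared among these 3, and no other mouse miRNA of the 1679 in the RefSeq table had any of these seeds. Bases 2 to 7 of miR-144-3p were shared with 1 other, miR-101a-3p.

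The hairpins follow 5′ to 3′, with the mature parts in capitals, to show where in the stem each product lies.
Mir144: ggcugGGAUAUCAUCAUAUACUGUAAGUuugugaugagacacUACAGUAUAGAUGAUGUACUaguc
Mir451a: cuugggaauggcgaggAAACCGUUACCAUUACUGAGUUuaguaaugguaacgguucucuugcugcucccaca
Mir144 lies at chr11:78073005-78073070 and Mir451a at chr11:78073170-78073241, both on the plus strand and 99 bases apart. In the fold predicted by RNAfold, 17 of the 22 bases of miR-451a were paired, all on 1 side of the stem, and its last 4 bases made up the whole of the 4-base loop. The arms of miR-144 lay on opposite sides of a stem with a 6-base loop, and neither reached into the loop. On the minus strand, the Mir451a locus also carries Mir451b, whose miRNA had 0 reads in every library.

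The libraries held 1855718 and 3278294 miRNA reads in basal libraries 1 and 2, and 1583830 and 1501898 in luminal libraries 1 and 2. miR-200c-3p alone filled 22.3% and 46.9% of these reads in the basal libraries and 68.5% and 71.6% in the luminal libraries. Levels scaled to 1000000 miRNA reads (RPM) therefore depend on how much of a library that miRNA fills, and for the sum of the set, miR-451a and miR-144-3p, whose order changes without it, those levels are given too. In bulk samples, fewer cells of a type and less RNA per cell cannot be told apart.

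Basal replicate 2 held most of the reads of the set. The 5 members together had 459 and 11084 reads in basal libraries 1 and 2, against 281 and 796 reads in luminal libraries 1 and 2. These sums were 247 and 3381 RPM in the basal libraries and 177 and 530.0 RPM in the luminal libraries. The other basal library lay between the 2 luminal libraries, so the groups overlapped. Without miR-200c-3p in the total, the sums were 318 and 6371 RPM in the basal libraries and 564 and 1869 RPM in the luminal libraries, and that basal library was the lowest.

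miR-451a was the most abundant member in every library. It had 450 and 9636 reads in basal libraries 1 and 2, and 265 and 794 reads in luminal libraries 1 and 2. Its level was 242 RPM (95% exact binomial interval 221 to 266) and 2939 RPM (2881 to 2999) in the basal libraries, and 167 RPM (148 to 189) and 529 RPM (493 to 567) in the luminal libraries. Such intervals cover counting error only, since reads are not independent molecules. By rank, miR-451a stood 106th of 547 and 36th of 548 listed miRNAs in basal libraries 1 and 2, and 112th of 573 and 65th of 445 in luminal libraries 1 and 2. Basal replicate 2 was thus the highest, luminal replicate 2 came next, and the 2 lowest libraries were 1 of each cell type.

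**Figure D1:**
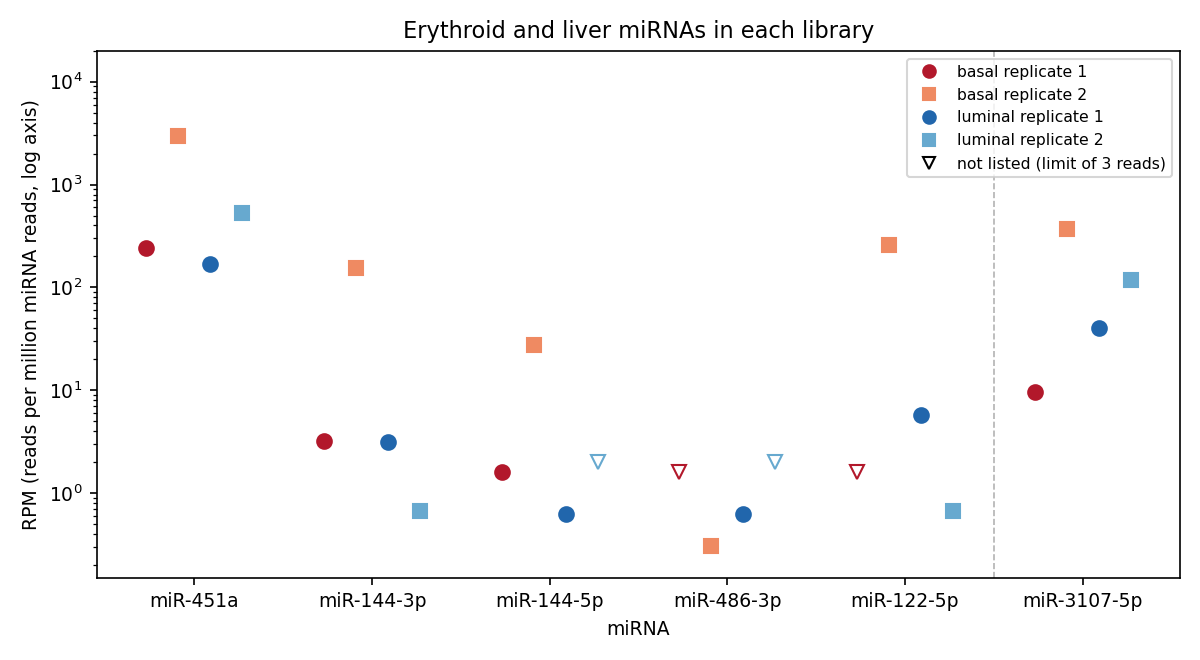
Level of each member, and of miR-3107-5p to the right of the dashed line, in RPM on a log axis. Each filled point is 1 library and each open triangle marks a library where the miRNA was not listed, drawn at the limit of 3 reads. Basal replicate 2 is highest for miR-451a, both miR-144 arms, miR-122-5p and miR-3107-5p, at 2939 RPM for miR-451a.

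On the RPM scale, the difference between the basal libraries was larger than the difference between the groups. miR-451a was 12.1-fold higher in basal replicate 2 than in basal replicate 1 (95% counting interval 11.03 to 13.4). It was 17.6-fold higher there than in luminal replicate 1 (15.5 to 19.9) and 5.56-fold higher than in luminal replicate 2 (5.17 to 5.98). As a group, basal libraries averaged 1591 ± 1907 RPM and luminal libraries 348 ± 256 RPM (SD, n = 2 each). The basal SD exceeded the basal mean.

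Which library was lowest depended on the scale. Without miR-200c-3p in the total, miR-451a stood at 312 and 5538 RPM in basal libraries 1 and 2, and at 532 and 1865 RPM in luminal libraries 1 and 2, so that basal replicate 1 was below both luminal libraries. With TMM (trimmed mean of M values) scaling it stood at 168 and 2869 RPM in the basal libraries and at 203 and 645 RPM in the luminal libraries, again with basal replicate 1 lowest. Per 1000000 reads of the Cali sequences, names in the table whose nature is not given, it stood at 583 and 2503 in the basal libraries and 101 and 361 in the luminal libraries. On that last scale both basal libraries were above both luminal libraries. Basal replicate 2 was the highest library on each of these scales.

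The fit across all miRNAs could test 1 of the 5 members. miR-451a passed the filter on low counts, and miR-144-3p, miR-144-5p, miR-486-3p and miR-122-5p did not, since none of them reached the minimum in 2 libraries. With no filter, edgeR called miR-122-5p and miR-144-3p higher in basal libraries (log2 fold changes of 5.12 and 5.10), although basal replicate 1 had 0 and 6 reads of them, so that the calls rest on basal replicate 2. The log2 fold change of miR-451a, basal over luminal, was 1.84 with a standard error of 0.91. It was not called by edgeR's quasi-likelihood test with Benjamini-Hochberg adjustment, in which 4.35% of the 345 tested miRNAs were called, nor by DESeq2, in which 8.12% were called, nor by limma-voom, in which 6.67% were called. At an unadjusted p under 0.05, the edgeR test counted 0 of 1 members, against 15.9% of all tested miRNAs. The median log2 fold change of all tested miRNAs was -0.01, and 172 of 345 were above 0.

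With TMM scaling, basal replicate 2 alone gave the fitted difference its direction. Without that library the log2 fold change of miR-451a was -1.32 with a standard error of 1.01. No fit without it was made with scaling to the Cali reads, by which basal replicate 1 also stood above both luminal libraries. Without luminal replicate 2, the higher of the luminal libraries, it was 2.93 with a standard error of 0.95 and passed the threshold, with the lone luminal library assumed to vary like the basal ones (edgeR adjusted p = 0.0367, with values from that to 0.736 over the 14 other settings). With the other settings the value stayed above 0, from 0.95 with limma-voom or with the replicate number as a block to 2.74 with scaling to the Cali reads.

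**Figure D2:**
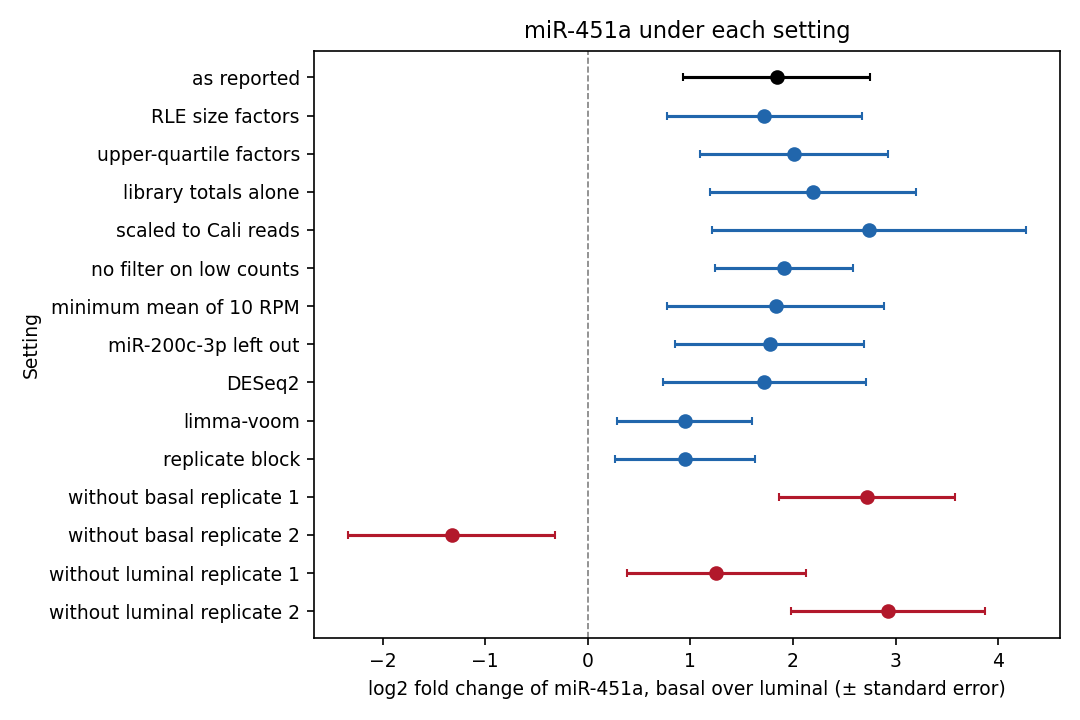
Log2 fold change of miR-451a, basal over luminal, with its standard error under each setting, in black as reported, in blue for other scalings, filters and tools, and in red with 1 library left out. The value is -1.32 without basal replicate 2 and above 0 in each of the other settings.

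miR-144-3p, known in human red cell precursors to restrain the oxidative stress factor NRF2, was nearly confined to basal replicate 2. It had 6 and 505 reads in basal libraries 1 and 2, and 5 and 1 reads in luminal libraries 1 and 2. These counts were 3.23 and 154 RPM in the basal libraries and 3.16 and 0.67 RPM in the luminal libraries. Basal replicate 2 was 47.6-fold above basal replicate 1 (95% counting interval 21.7 to 130) and 48.8-fold above luminal replicate 1 (20.8 to 151). Basal replicate 1 and luminal replicate 1 did not differ beyond counting error. Without miR-200c-3p in the total, the levels were 4.16 and 290.3 RPM in the basal libraries and 10.04 and 2.35 RPM in the luminal libraries, so that luminal replicate 1 stood above basal replicate 1.

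The opposite arm, miR-144-5p, was rarer and went the same way. It had 3 and 90 reads in basal libraries 1 and 2, and 1 and 0 reads in luminal libraries 1 and 2. In basal replicate 2 this was 27.5 RPM (95% exact binomial interval 22.1 to 33.7), and 3 reads, taken as the limit that a count of 0 allows, would be 1.997 RPM in luminal replicate 2. Both arms thus had basal values above both luminal values on the RPM scale, a pattern that 40.0% of the tested miRNAs also showed. For miR-144-5p it rests on the 3 reads of basal replicate 1, or 1.62 RPM (0.33 to 4.72). This is below the limit of 1.997 RPM in luminal replicate 2, so basal replicate 1 cannot be put above the luminal libraries at this depth. For miR-144-3p the pattern ended without miR-200c-3p in the total and with TMM scaling, where 27.2% of the tested miRNAs showed it. In basal replicate 2, where alone the arms could be compared with useful precision, there were 178 reads of the 5p arm per 1000 of the 3p arm (141 to 223).

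The 2 products of the erythroid transcript were not in 1 ratio across libraries. There were 13.3 reads of miR-144-3p per 1000 reads of miR-451a in basal replicate 1 (95% exact interval 4.87 to 29.2) and 52.4 in basal replicate 2 (47.8 to 57.3). In luminal replicate 1 there were 18.9 (6.08 to 44.6), and in luminal replicate 2 there were 1.26 (0.0318 to 7.04). The interval of basal replicate 2 lay above those of the other 3 libraries. Luminal replicate 2 held the second-highest level of miR-451a but 1 read of miR-144-3p. Ratios between miRNAs also carry the unequal capture of sequences in library preparation, which is the same in each library only if the preparation was.

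miR-486 was almost absent under its own name. miR-486-3p had 0 and 1 reads in basal libraries 1 and 2, and 1 and 0 reads in luminal libraries 1 and 2, and no library listed a 5p arm by that name. By the same limit of 3 reads, a count of 0 allows up to 1.62 RPM in basal replicate 1 and 1.997 RPM in luminal replicate 2. At this depth no difference in miR-486-3p was detectable.

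The locus of miR-486 carries a second gene under another name. Mir486 lies at chr8:23142555-23142682 on GRCm38, in an intron of Ank1 on its strand. Mir3107 lies within the same stretch on the opposite strand, from 23142573 to 23142662, and RefSeq gives mir-486b as its synonym. The 5p arms of both genes are known to be identical in sequence, so reads of one cannot be told from reads of the other, and the labels do not say how the authors assigned such reads. miR-3107-5p is not a member by name.

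Like miR-451a, miR-3107-5p was highest in basal replicate 2 and second in luminal replicate 2. It had 18 and 1203 reads in basal libraries 1 and 2, and 64 and 176 reads in luminal libraries 1 and 2. Its level was 9.70 and 367 RPM in the basal libraries and 40.4 and 117 RPM in the luminal libraries. Basal replicate 1 was the lowest. The 2 groups overlapped, and the log2 fold change, basal over luminal, was 0.93 with a standard error of 1.12. Without basal replicate 2 it was -3.81 with a standard error of 1.62. Per 1000 reads of miR-451a there were 40.0 (95% exact interval 23.5 to 63.9) and 125 (117 to 133) in basal libraries 1 and 2, and 242 (181 to 318) and 222 (187 to 261) in luminal libraries 1 and 2. The luminal libraries thus shared 1 ratio within counting error, and both were above the basal libraries.

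miR-122-5p, the liver miRNA, was the second most abundant member in basal replicate 2 and near 0 elsewhere. It had 0 and 852 reads in basal libraries 1 and 2, and 9 and 1 reads in luminal libraries 1 and 2. Its level in basal replicate 2 was 260 RPM (95% exact binomial interval 243 to 278), 99th among the listed miRNAs of that library. By the limit of 3 reads, the count of 0 in basal replicate 1 allows up to 1.62 RPM. Against that limit, basal replicate 2 was 161-fold higher than the other library of its own group. The 95% counting interval of this fold began at 130. Luminal replicate 1 was at 5.68 RPM (2.60 to 10.8) and luminal replicate 2 at 0.67 RPM. The groups thus overlapped, and the 0 reads of basal replicate 1 and 1 read of luminal replicate 2 cannot be put in order at this depth.

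miR-122-5p did not keep a fixed ratio to miR-451a. There were 88.4 reads of miR-122-5p per 1000 of miR-451a in basal replicate 2 (95% exact interval 82.3 to 94.8), and 0 reads in basal replicate 1, where the interval ends at 8.23. In luminal replicate 1 there were 34.0 per 1000 (15.4 to 65.5) and in luminal replicate 2 there were 1.26 (0.0318 to 7.04). Basal replicate 2 lay above the intervals of the other 3 libraries, and luminal replicate 1 above those of basal replicate 1 and luminal replicate 2.

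Among all miRNAs of basal replicate 2, the members were among those that stood out most from the other libraries. Of the 256 miRNAs with at least 50 reads there, 63 (24.6%) had their highest RPM in that library. Ranked by the fold over the highest of the other 3 libraries, with counts under 3 reads raised to 3, miR-144-3p was first at 47.6-fold and miR-122-5p second at 45.7-fold. miR-144-5p was the fourth at 13.7-fold, miR-451a the seventh at 5.56-fold and miR-3107-5p the eighth at 3.13-fold. Only 7 of the 256 reached 5-fold, and 4 of these 7 were members. miR-486-3p, with 1 read in basal replicate 2, was not ranked. The minimum of 50 reads was set on basal replicate 2 itself, and the set was chosen with these reads known. The ranking thus only describes that library and is no support for a trait of the members.

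The miRNAs most like miR-451a over the 4 libraries included miR-3107-5p. Likeness was measured as the root mean square difference of log2 TMM-normalised RPM, each miRNA centred on its own mean, among 174 miRNAs with a mean of at least 50 RPM. The 5 nearest were miR-103-3p (0.90), miR-374b-5p (0.96), miR-3107-5p (0.97), miR-107-3p (1.03) and miR-423-5p (1.04), where the median over all 174 was 1.81. miR-103-3p and miR-107-3p are near-identical in sequence and can share reads. All 5 were highest in basal replicate 2, by the same measure that chose them. The centred value of miR-451a in that library was 2.51 on the log2 scale and that of miR-3107-5p 2.43, while the other 4 lay between 0.81 and 1.16. With 4 libraries, of which 1 stands apart, such likeness says mainly that a miRNA was high in that library.

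**Figure D3:**
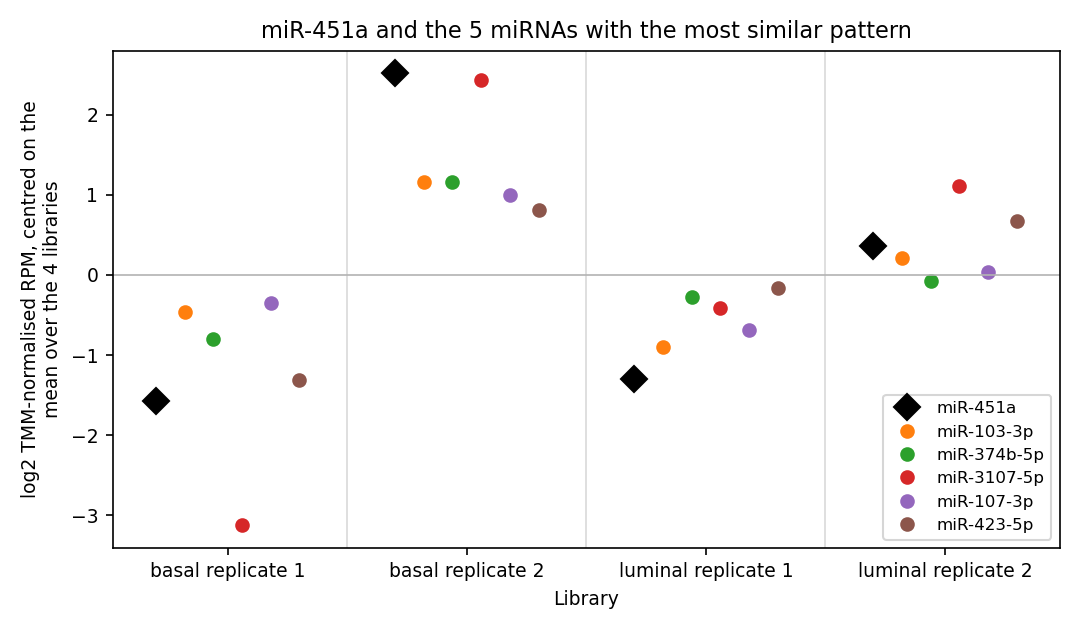
Log2 TMM-normalised RPM of miR-451a (diamonds) and of the 5 miRNAs nearest to it, each centred on its mean over the 4 libraries. miR-451a and miR-3107-5p reach 2.51 and 2.43 in basal replicate 2, and the other 4 stay between 0.81 and 1.16 there.

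Other miRNAs that are abundant in red cells did not share the peak in basal replicate 2. All 10 of this list were seen, led by miR-16-5p, which restrains the cell cycle and is made in most tissues. Their summed level was 52368 and 24631 RPM in basal libraries 1 and 2, and 19733 and 8431 RPM in luminal libraries 1 and 2. The highest library was thus basal replicate 1, and the order was not that of miR-451a. Of the 9 tested, 0 passed in either direction (edgeR adjusted p under 0.05, background 4.35%), with a median log2 fold change of 0.57. None passed by DESeq2, by limma-voom or at an unadjusted p under 0.05 in edgeR.

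The summed level of other miRNAs that are abundant in liver did not peak where miR-122-5p did. It was 5217 and 4539 RPM in basal libraries 1 and 2, and 21623 and 17056 RPM in luminal libraries 1 and 2. Most of it was miR-148a-3p, which is also made in epithelia and was the 1 member of the 6 tested that passed (background 4.35%), higher in luminal libraries. miR-192-5p, a miRNA of gut and liver, had 127 and 85 reads in basal libraries 1 and 2 and 52 and 30 reads in luminal libraries 1 and 2. miR-802-5p had 0 and 5 reads in basal libraries 1 and 2, and 0 reads in both luminal libraries. In basal replicate 2 this was 1.53 RPM, below the limit of 3 reads in each other library, 1.62 to 1.997 RPM. Its 0 reads elsewhere thus show no difference. miR-215-5p had 0 reads in both basal libraries, and 7 and 9 reads in luminal libraries 1 and 2. Of the 8 miRNAs of this list, 5 were highest in basal replicate 1 on the RPM scale and 1 in each other library. That count depends on the scale. Without miR-200c-3p in the total, miR-192-5p, miR-194-5p, miR-33-5p and miR-378a-3p would be highest in a luminal library instead. With TMM scaling this would hold for miR-33-5p and miR-378a-3p.

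Markers of further cell types had several patterns over the libraries. The leukocyte list, 7 of 8 of which were seen, summed to 6604 and 8572 RPM in basal libraries 1 and 2, and 3700 and 7234 RPM in luminal libraries 1 and 2. On the RPM scale the sum had the order of miR-451a, over a much smaller range, but its miRNAs did not. With TMM scaling, or without miR-200c-3p in the total, the sum would be highest in luminal replicate 2, unlike miR-451a. Of the 7, 6 were highest in luminal replicate 2, while miR-150-5p, a lymphocyte miRNA that made up most of the sum in both basal libraries, was highest in basal replicate 2 and lowest in luminal replicate 2. Among the 6, miR-223-3p, a myeloid miRNA, had 19 and 213 reads in basal libraries 1 and 2, and 38 and 409 in luminal libraries 1 and 2. The striated muscle list, 5 of 7 of which were seen, summed to 28.0 and 67.1 RPM in the basal libraries and 12.0 and 10.7 RPM in the luminal libraries. Of its miRNAs, 4 of the 5 seen were highest in basal replicate 2. Among all miRNAs with at least 50 reads there, 24.6% were highest in that library. For miR-206-3p this was 1 read, at 0.31 RPM below the limit of 3 reads in each other library, and so shows no difference. miR-1a-3p had 22 and 72 reads in basal libraries 1 and 2, and 0 and 1 reads in luminal libraries 1 and 2. miR-133a-3p had 30 and 132 reads in the basal libraries and 18 and 15 reads in the luminal libraries. miR-499-5p, encoded within a myosin heavy chain gene, had 0 and 15 reads in the basal libraries and 0 reads in both luminal libraries, and miR-206-3p and miR-208b-3p had 1 read each over the 4 libraries. The endothelial pair of miR-126a arms was highest in basal replicate 1, at 79431 RPM against 35408 RPM in basal replicate 2, and stood at 8735 and 792 RPM in luminal libraries 1 and 2. The part of these cell types in the levels of the members was not tested.

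**Figure D4:**
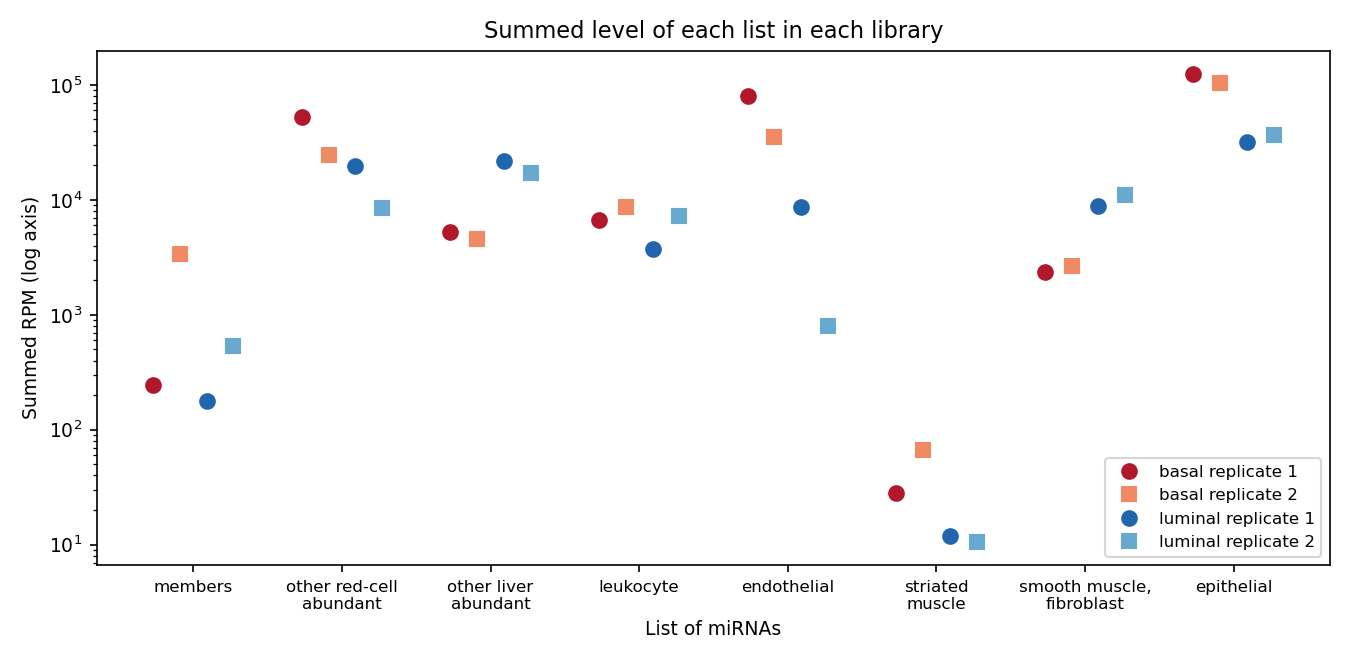
Summed RPM of the 5 members and of 7 lists of other miRNAs in each library, on a log axis, with basal libraries 1 and 2 left of luminal libraries 1 and 2. The members peak in basal replicate 2 at 3381 RPM, whereas the other red-cell-abundant miRNAs and the endothelial pair peak in basal replicate 1.

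On the remaining lists, edgeR gave 0 calls among the 7 tested leukocyte, 2 endothelial and 2 striated muscle miRNAs, against 4.35% of all tested miRNAs. At an unadjusted p under 0.05 it counted 1, 2 and 1 of them (background 15.9%), while DESeq2 called 1, 1 and 0 (background 8.12%) and limma-voom 1, 2 and 0 (background 6.67%). The smooth muscle and fibroblast list had 2 of 5 called (edgeR background 4.35%), both higher in luminal libraries, and its sum was 2345 and 2654 RPM in basal libraries and 8788 and 11067 RPM in luminal libraries. The epithelial list had 1 of 5 called (the same background), higher in basal libraries, with sums of 123816 and 104336 RPM in basal and 31729 and 36900.0 RPM in luminal libraries. The called miRNA, miR-205-5p, made up most of the basal sums, at 74957 and 82900 RPM, against 5520 and 3773 RPM in luminal libraries. Of the 5, 3 had log2 fold changes below 0. miR-200c-3p, which filled more of the luminal than of the basal libraries, was not on this list. Set beside these sums, the members made up 0.0247% and 0.338% of all miRNA reads in the basal libraries, against 0.0177% and 0.0530% in the luminal libraries.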

How the data were processed

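The deposited table gives raw read counts per miRNA name, in 1 list per library, per the file headers. The file name points to BLAST. Its version, the miRNA release, trimming, and the handling of reads with several matches are not stated in the labels. Each list ends with its own sum, which was left out. A name not listed was taken as 0 reads. The 4 names other than miRNAs were kept out of totals. edgeR 4.0.16 in R 4.3.3 tested the counts (TMM, filterByExpr with a minimum of 10 reads and a total of 15, cell type as the only term, 2-sided, Benjamini-Hochberg over 345 miRNAs, threshold 0.05), with DESeq2 1.42.0 and limma 3.58.1 as alternatives. The edgeR fit was tested on simulated data. Hairpins were folded with RNAfold 2.7.2. Members and lists were chosen with earlier results of these data known. Every member was named, along with the 5 miRNAs nearest in pattern to miR-451a and the leading miRNAs of the lists. miR-142 arms were matched to the list by RefSeq synonyms. Since no label ties the libraries of a group to separate mice, the p-values speak only of the spread among these libraries, and that may be technical.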

Additional observations from a re-analysis of the deposited data

How the results depend on the processing

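The number of miRNAs called in all, 15 as reported, was 2 with library totals alone, 3 with scaling to the Cali reads, 5 with a minimum mean of 10 RPM, 28 with DESeq2 and 23 with limma-voom, and from 9 to 61 without 1 library. miR-451a stood at -1.32 without basal replicate 2 and at 2.93 without luminal replicate 2, the ends of its range without 1 library. miR-3107-5p was below 0 with limma-voom (-0.59), with the replicate block (-0.69) and without basal replicate 2 (-3.81), and reached 1.92 without luminal replicate 2. With no filter on low counts, edgeR called 2 members higher in basal libraries that the fit as reported did not test. They were miR-122-5p (log2 fold change 5.12, adjusted p = 0.00121, with 0 reads in basal replicate 1) and miR-144-3p (5.10, adjusted p = 0.00843). With miR-200c-3p left out, edgeR tested only miR-122-5p of the 2 and did not call it (4.98, adjusted p = 0.172). With a minimum mean of 10 RPM both were tested and neither was called (edgeR adjusted p = 0.278 and 0.179). Both passed the filter and were called in fits without basal replicate 1, luminal replicate 1 or luminal replicate 2, where 1 arm holds 1 library that is assumed to vary like the other arm. They passed there only through basal replicate 2, so these calls are no sign of stability. The fit without basal replicate 2 tested neither. With miR-200c-3p left out of the total, luminal means were 1198 RPM for miR-451a, 10.2 for miR-122-5p, 6.19 for miR-144-3p and 1.004 for miR-144-5p and miR-486-3p.

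The replicate numbers are shared only as numbers. Deviations of same-numbered libraries from their group means correlated at 0.153 over 345 miRNAs, and with 2 pairs this does not establish pairing. With the replicate number as a block there were 23 calls, and miR-451a had a log2 fold change of 0.95 and was not called.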

Other observations

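The other 3 miRNAs that stood at least 5-fold above every other library in basal replicate 2, named after their values were seen, were not erythroid or liver miRNAs. miR-369-3p had 1 and 150 reads in basal libraries 1 and 2, and 4 and 0 reads in luminal libraries 1 and 2. miR-410-3p had 0 and 59 reads in basal libraries 1 and 2, and 0 reads in both luminal libraries. Both belong to the imprinted Dlk1-Dio3 cluster. miR-345-3p had 9 and 119 reads in basal libraries 1 and 2, and 7 and 3 reads in luminal libraries 1 and 2.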
